A study of Mus musculus with 11 samples.

Results

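In villus epithelium of the mouse jejunum, 354 sites were bound by CDX2, lacked a HNF4A peak and lay in chromatin without a called H3K4me2 nucleosome. They came from 1584 wild-type CDX2 sites, each a merged region holding overlapping peaks of both wild-type CDX2 libraries. Of these, 684 overlapped a wild-type HNF4A peak by at least 1 bp and were set aside. Of the other 900, 546 had a wild-type H3K4me2 nucleosome centred within 1 kb of the site centre, and the remaining 354 had none. The sites were thus chosen by called peaks and nucleosomes in 4 wild-type lists, both CDX2 lists, HNF4A and H3K4me2, and values from those lists are given as a description.

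Chromatin immunoprecipitation with sequencing (ChIP-seq) was applied to villi released from jejunum with EDTA, from mice on a mixed 129xC57BL6 background. CDX2 was mapped in wild type (2 libraries) and in Hnf4a knockout (1 library), HNF4A in wild type and in Cdx2 knockout (1 library each). H3K4me2 was mapped with 1 library each in wild type, Cdx2 knockout, Hnf4a knockout and 2 double knockouts. The labels give no age, no Cre driver and no statement that the wild-type CDX2 libraries came from separate animals. DNA from several immunoprecipitations was pooled for every library. Both double knockouts carry contradictory labels for the gene deleted beside Cdx2, so they are called here the libraries titled Cdx2-Cdx1 and Cdx2-Hnf4a. No list shows CDX2 in Cdx2 knockout or HNF4A in Hnf4a knockout, so the deletions could not be checked here. Sequences, genes and tissue markers at the sites were not analysed here.

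CDX2 is a homeodomain transcription factor that specifies the intestine in the embryo and maintains the identity of its epithelium in the adult. HNF4A is a nuclear receptor that acts with CDX2 at many genes of absorptive enterocytes. H3K4me2, dimethylation of lysine 4 on histone H3, lies on nucleosomes at promoters and enhancers. Nucleosomes with this mark often flank a bound transcription factor. Factor binding outside such chromatin is common in ChIP-seq data.

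The lists differed in length and in threshold. For CDX2 there were 12121 peaks in wild-type library 1, 7441 in library 2 and 5768 in Hnf4a knockout, all with scores of at least 50. Reads per library are unknown. The H3K4me2 lists held between 250986 and 292966 nucleosomes, except that of Hnf4a knockout with 485509. That list reached down to a nucleosome score of 1.70, against 50.1 to 51.3 in the others. Its values are therefore also given at a strict threshold, a nucleosome score of at least 52, where it held 250282 nucleosomes. A site is without wild-type H3K4me2 here where no nucleosome was called above the lowest score of that list, and weaker signal cannot be seen in it.

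The 354 sites were weaker and narrower CDX2 sites than the rest. Their CDX2 peak scores ran from 50.7 to 745 with a median of 87.8 in wild-type library 1, and from 50.1 to 423 with a median of 66.5 in library 2. The mean of the paired scores had a median of 78.3, against 98.6 at the 546 CDX2-only sites with H3K4me2 and 110.0 at the 684 sites shared with HNF4A. Median widths were 508.5, 639.5 and 761.0 bp in the same order. Within the 354, the score was higher in library 1 at 259 sites, and the libraries ordered the sites differently (Spearman rho 0.265 across sites, which share libraries and are not replicates). The peak centres of the libraries lay a median of 53.8 bp apart.

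**Figure D1:**
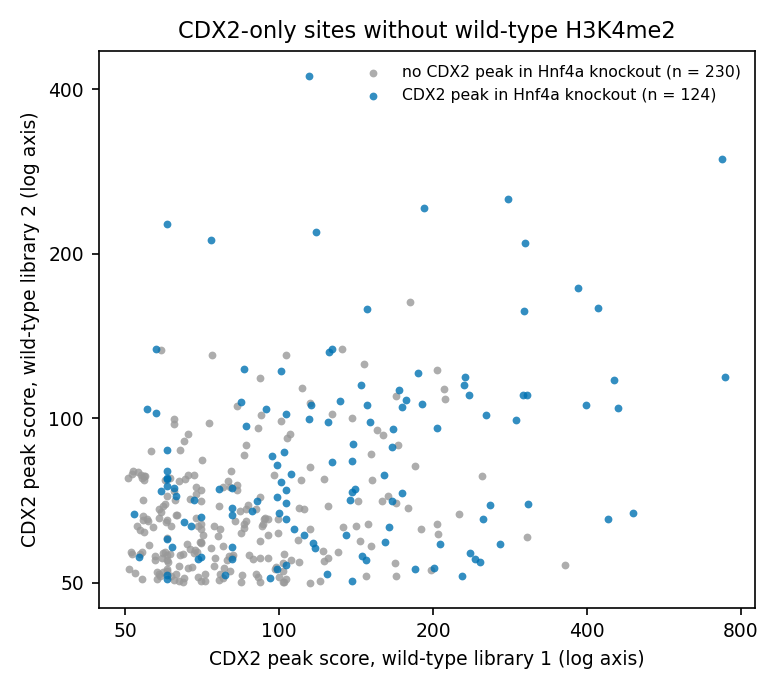
CDX2 peak score of each of the 354 sites in wild-type library 1 (x axis, log scale) against library 2 (y axis, log scale), coloured by whether CDX2 was called there in Hnf4a knockout. Blue points (124 sites) reach further up on both axes than grey points (230 sites).

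The strongest of them lay on chromosome 6 at 149405745 to 149406535 (build mm9), with scores of 734 in library 1 and 299 in library 2, and 180 in Hnf4a knockout. Its nearest wild-type nucleosome was 47.4 kb away and its nearest wild-type HNF4A peak 82.2 kb away. In the H3K4me2 lists it had 0 nucleosomes within 1 kb in Cdx2 knockout, 7 in Hnf4a knockout (2 at the strict threshold), 1 in the library titled Cdx2-Cdx1 and 0 in that titled Cdx2-Hnf4a. A very strong CDX2 site thus lay far from any called wild-type mark.

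The next strongest lay on chromosome 5 at 150294045 to 150295009, with scores of 745, 119 and 164 in library 1, library 2 and Hnf4a knockout, and it had no nucleosome in any list. A site on chromosome 15 at 24358735 to 24359370 (420, 159 and 129) also had none, and the nearest wild-type nucleosome was 840 kb away. A site on chromosome 8 at 8682621 to 8683106 (452, 117 and 123) lay only 2.90 kb from marked chromatin. It had 7 nucleosomes in Hnf4a knockout, 0 of them at the strict threshold, and 0 in the other lists. The site ranked after it, on chromosome 1 at 138257329 to 138258121 (461, 104 and 148), had 1 nucleosome in the library titled Cdx2-Cdx1 and 0 elsewhere. CDX2 was called in Hnf4a knockout at each of these strongest sites, and their mark ranged from none in any list to 7 nucleosomes.

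The surroundings of the sites were less densely marked than those of the other bound places set beside them, and few of the sites lay near one another. The nearest wild-type nucleosome was a median of 12.9 kb away, with quartiles of 3.77 and 58.4 kb. At 198 of 354 sites, or 55.9% (exact 95% interval 50.6 to 61.2), it was more than 10 kb away, and at 56 sites more than 100 kb. Between 10 and 50 kb from the site centres, the wild-type list held 148 nucleosomes per Mb. The same ring held 257 per Mb around CDX2-only sites with H3K4me2 and 225 per Mb around the 4874 HNF4A peaks without CDX2 or H3K4me2. A genome average was not set beside these densities.

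HNF4A was distant too. Its nearest wild-type peak lay a median of 51.0 kb away, against 11.2 kb at CDX2-only sites with H3K4me2. Only 3 of 354 sites had a wild-type HNF4A peak centred within 1 kb, at 571.5, 809.5 and 865.5 bp. The nearest other CDX2 site lay a median of 431 kb away, against 263 kb and 230 kb (229.5) for CDX2-only sites with H3K4me2 and shared sites. Another CDX2 site lay within 10 kb at 10 of the 354, and in 0 of these 10 cases was a second member of the 354 within that distance.

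They were found on chromosomes 1 to 19 and X. The share of a chromosome's CDX2 sites that belonged to them ran from 13.3% on chromosome 13 (11 of 83, interval 6.81 to 22.5) to 39.1% on chromosome 16 (25 of 64, 27.1 to 52.1). These are the extremes, beside 354 of 1584 over all chromosomes, and a difference between chromosomes was not tested.

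The 3 sites nearest the 1 kb limit on each side had similar scores, while the whole groups differed in median score as given above. The sites closest to the limit from within the 354 had their nearest wild-type nucleosome at 1.03 kb (chromosome 6, 37521983 to 37522603, mean wild-type CDX2 score 68.2), 1.05 kb (chromosome 5, 91707538 to 91708102, 60.3) and 1.07 kb (chromosome 3, 30690446 to 30690810, 88.5). Just across the limit were sites at 0.99 kb (chromosome 16, 55753381 to 55753775, 72.4), 0.98 kb (chromosome 8, 49768807 to 49769141, 61.1) and 0.94 kb (chromosome 13, 6202371 to 6202899, 81.3). In Hnf4a knockout the first trio had 3, 5 and 3 nucleosomes within 1 kb and the second 2, 5 and 4. None of the 6 had a nucleosome in Cdx2 knockout.

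Whether CDX2 stays at such sites without HNF4A was read from the CDX2 list of Hnf4a knockout, which took no part in choosing them. CDX2 was called at 124 of 354 sites, or 35.0% (exact 95% interval 30.1 to 40.2), where 39.2% of all 1584 CDX2 sites were called. A site without a called peak is called lost here, which is not the same as absence of binding. The share was 39.0% (34.9 to 43.2) at CDX2-only sites with H3K4me2, a difference of −3.98 percentage points (Newcombe 95% interval −10.3 to 2.50). It was 41.5% (37.8 to 45.3) at sites shared with HNF4A, a difference of −6.49 points (−12.6 to −0.224). With 1 knockout library there is no replicate check, and these intervals cover counting error only.

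The lower share went with lower wild-type scores. Sites were divided into terciles of the mean wild-type score over all 1584 sites, with limits at 79.96 and 122.9, and 188, 97 and 69 of the 354 fell into the lowest, middle and highest tercile. CDX2 was called in Hnf4a knockout at 17.6% (12.4 to 23.8), 43.3% (33.3 to 53.7) and 71.0% (58.8 to 81.3) of them. Over all 1584 CDX2 sites the shares were 16.3%, 35.2% and 66.1% in the same order, so the rise was not particular to the 354. Among the 354, the highest tercile was 53.5 points (40.4 to 64.0) above the lowest. Within terciles the order of the groups turned. In the lowest, middle and highest tercile the 354 sites were 1.27, 6.46 and 8.51 points above CDX2-only sites with H3K4me2, with every interval including 0. Against sites shared with HNF4A they were 2.67, 12.6 and 3.74 points higher, and only the middle interval (1.38 to 23.9) excluded 0. The intervals against CDX2-only sites with H3K4me2 reached down to −6.58, −5.31 and −4.86 points, and the median score in the highest tercile was 153 at the 354 sites against 168.1 and 167.5 in the other groups.

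**Figure D2:**
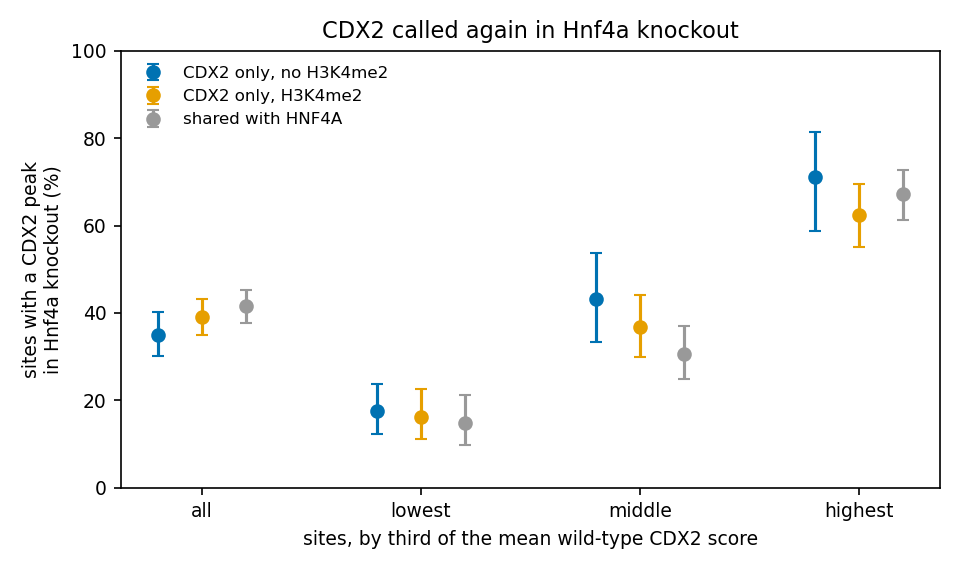
Share of sites with a CDX2 peak in Hnf4a knockout (y axis, percent) for all sites and by tercile of the mean wild-type CDX2 score (x axis), for CDX2-only sites without H3K4me2, CDX2-only sites with H3K4me2 and sites shared with HNF4A. Points are shares and bars exact 95% intervals. All 3 groups climb from under 20% in the lowest tercile to over 60% in the highest.

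CDX2 was called again at all 10 of the sites with the highest mean wild-type score, at 39 of the 50 highest and at 6 of the 50 lowest. Like ranks were not counted over all CDX2 sites, whose shares by tercile also rose with score. Ranked by either wild-type library alone, 36 of the 50 highest were called. Above the highest score of any lost site, which was 363 in library 1 and 163 in library 2, there were 9 sites by either library. Among the 124 called sites, the knockout score had a median of 77.6, against 124 in library 1 and 75.9 in library 2. It lay below both wild-type scores at 57 sites and above both at 15. These scores depend on the depth of each library, which is unknown.

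The highest-scoring lost site had rank 15 of the 354 by mean score, on chromosome 15 at 6964805 to 6965551, and its scores in the wild-type libraries were far apart, at 363 and 54.0. It had 2 nucleosomes in Hnf4a knockout and 3 in the library titled Cdx2-Cdx1. Next came lost sites on chromosome 9 at 29126295 to 29126968 (305 and 60.8) and on chromosome 2 at 145982669 to 145983075 (180 and 163), followed by a site on chromosome 2 (13604099 to 13604692, with 250 and 78.6) and one on chromosome 19 (15628447 to 15628790, with 203 and 123). Of these 5 lost sites, 4 were at least 48.7 kb from a wild-type nucleosome, and the second site on chromosome 2 was 1.71 kb away. None of the 5 had a nucleosome in Cdx2 knockout.

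The share depended on needing both wild-type libraries. Among library 2 peaks without HNF4A or H3K4me2 (5312 peaks, library 1 unused) CDX2 was called in Hnf4a knockout at 5.69%, and among such library 1 peaks (4937, library 2 unused) at 5.21%. The difference from CDX2-only peaks with H3K4me2 was then −16.4 points (−18.8 to −14.0) without library 1 and −4.14 (−5.25 to −3.06) without library 2. Both intervals excluded 0, where that of the sites holding both libraries included it. These single-library differences were not taken at like wild-type score, within which the order of the groups had turned above. The share over all peaks of a single library is not given here.

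No HNF4A peak was called at these sites in Cdx2 knockout. The count was 0 of 354 sites, which allows a share of up to 0.847% if 3 counts are taken as the limit and 1.04% by the exact 95% interval. Across all 1584 CDX2 sites 15.5% had one. Those include the sites shared with HNF4A, while the 354 were chosen to lack a wild-type HNF4A peak, so that gap partly follows from the choice. At CDX2-only sites with H3K4me2, which also lack a wild-type HNF4A peak, it was 11 of 546, or 2.01% (1.01 to 3.58). The HNF4A list held 9676 peaks in Cdx2 knockout against 22376 in wild type, so a missing peak is not the same as absence of binding. Within 1 kb of the centre, 2 of 354 sites had an HNF4A peak in Cdx2 knockout, against 3 in wild type.

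H3K4me2 near the sites in the knockouts came next. Since the sites had 0 nucleosomes in wild type by choice, any nucleosome elsewhere is a gain fixed by that choice. The knockout lists were therefore compared with each other and with the 4874 HNF4A peaks that overlapped no CDX2 peak of either library and had 0 wild-type nucleosomes within 1 kb, which were chosen for the same 0.

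In Cdx2 knockout the sites stayed almost without the mark. A nucleosome lay within 1 kb at 12 of 354 sites, or 3.39% (1.76 to 5.85), where 60.7% of all CDX2 sites had one. At the HNF4A peaks without wild-type H3K4me2 the share was 10.5% (9.66 to 11.4), a difference of −7.115 points for the CDX2 sites (−8.81 to −4.54). They held 14 nucleosomes in all, with a median score of 64.3 and a highest of 158. At CDX2-only sites with wild-type H3K4me2 the median score in this list was 209.

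Of the 12 sites, 2 had 2 nucleosomes in Cdx2 knockout. The first, on chromosome 15 at 81186558 to 81187215 (CDX2 scores 174 and 105 in wild type and 56.5 in Hnf4a knockout), had 4 nucleosomes in Hnf4a knockout and 1 and 3 in the libraries titled Cdx2-Cdx1 and Cdx2-Hnf4a. The other, on chromosome 1 at 31108210 to 31108821 (204 and 61.3, lost in Hnf4a knockout), had 6, then 1 and 1, and lay 1.12 kb from a wild-type nucleosome. Along with sites on chromosome 19 at 57168064 to 57168506 (1, 2 and 3 nucleosomes in Cdx2 knockout and the libraries titled Cdx2-Cdx1 and Cdx2-Hnf4a), chromosome 1 (43522772 to 43523108, with 1, 2 and 2) and chromosome 3 (104102842 to 104103219, with 0, 2 and 2), these were among the 9 sites with at least 4 nucleosomes over the 3 lists lacking Cdx2. Of those 9, 6 had exactly 4, and ties went to the higher wild-type CDX2 score. The 9 sites lay 1.12 to 15.9 kb from a wild-type nucleosome.

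The double knockouts lay between Cdx2 knockout and Hnf4a knockout. In the library titled Cdx2-Cdx1, 38 sites, or 10.7% (7.71 to 14.4), had a nucleosome, against 67.6% of all CDX2 sites. In the library titled Cdx2-Hnf4a it was 23 sites, or 6.50% (4.16 to 9.59), against 54.1%. Both shares were below those of HNF4A peaks without wild-type H3K4me2, by 4.90 points for Cdx2-Cdx1 (difference −4.90, −7.90 to −1.11) and 4.34 for Cdx2-Hnf4a (difference −4.34, −6.65 to −1.16). Of the sites marked in Cdx2 knockout, 8 of 12 were also marked in the library titled Cdx2-Cdx1 and 9 of 12 in the library titled Cdx2-Hnf4a. As shares of the longer lists these were 21.1% of 38 and 39.1% of 23. The same overlaps were not counted over all CDX2 sites. All 3 lists lacking Cdx2 had a nucleosome at 7 sites. The lists titled Cdx2-Cdx1 and Cdx2-Hnf4a were longer, with 292966 and 279224 nucleosomes against 262148 in Cdx2 knockout. With lists cut to equal length their shares were 6.50% (4.16 to 9.59) and 4.80% (2.82 to 7.58). Cdx2 knockout then had 2.82% (1.36 to 5.13), and these intervals overlapped.

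In Hnf4a knockout the mark was found more often. As deposited, 150 sites, or 42.4% (37.2 to 47.7), had a nucleosome, where 86.9% of all CDX2 sites had one. With the strict threshold applied to every list, wild type included, 358 sites qualified and 57 of them, or 15.9% (12.3 to 20.1), had one, where 78.5% of all CDX2 sites did. At that threshold the share was 3.35% (1.74 to 5.78) in Cdx2 knockout, 10.1% (7.14 to 13.7) in the library titled Cdx2-Cdx1 and 6.70% (4.34 to 9.81) in the library titled Cdx2-Hnf4a, where 60.4%, 66.4% and 54.0% of all CDX2 sites had one. With lists cut to equal length the shares were 15.3% in Hnf4a knockout and 2.82% in Cdx2 knockout. The HNF4A peaks without wild-type H3K4me2 gave 41.7% as deposited and 14.2% at the strict threshold in Hnf4a knockout, so the CDX2 sites differed from them by 0.723 points (−4.50 to 6.11) and 1.73 points (−1.84 to 5.98). Without regard to distance from marked chromatin, the CDX2-only sites were thus below the HNF4A peaks in each list lacking Cdx2. In Hnf4a knockout the interval of the difference included 0. Sites shared with HNF4A but without wild-type H3K4me2 were few, 31 as deposited and 36 at the strict threshold. In Hnf4a knockout 96.8% (83.3 to 99.9) and 66.7% (49.0 to 81.4) of them had a nucleosome, well above the CDX2-only sites. The 31 lay nearer a wild-type nucleosome than the 354 (median 5.04 against 12.9 kb). Their mean wild-type CDX2 score was also higher (median 108 against 78.3), and the shares were not compared at like distance or score. As deposited, the shares of the 31 were 16.1% in Cdx2 knockout and 35.5% and 19.35% in the libraries titled Cdx2-Cdx1 and Cdx2-Hnf4a.

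**Figure D3:**
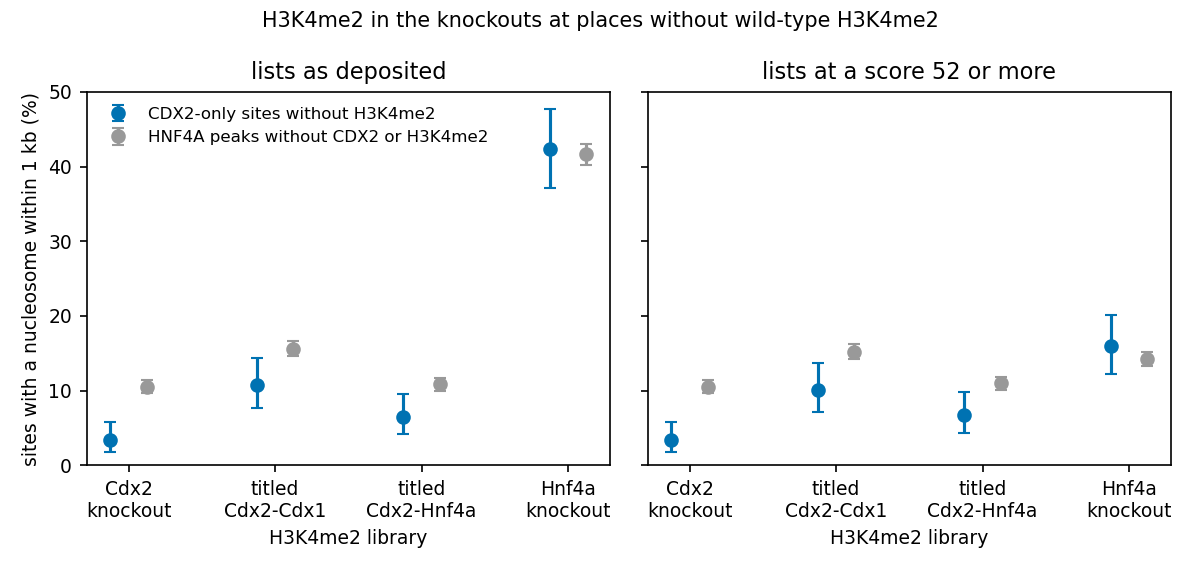
Share of places without wild-type H3K4me2 that had a nucleosome within 1 kb (y axis, percent) in each knockout library (x axis), for CDX2-only sites and for HNF4A peaks without CDX2, with the lists as deposited (left) and at a nucleosome score of at least 52 (right). Bars are exact 95% intervals. The CDX2-only points lie below the HNF4A points in the 3 lists lacking Cdx2 and beside them in Hnf4a knockout.

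Most nucleosomes near the 354 sites in Hnf4a knockout were weak ones. These 441 had a median score of 22.8, 80 of them (18.1%) reached 52, and the highest score was 299. In the whole list 250282 of 485509 nucleosomes reached 52, and near CDX2-only sites with wild-type H3K4me2 66.9% did. The 354 sites were chosen to have no called wild-type nucleosome, and whether that choice favours low scores was not tested. The 441 were also central. Within 150 bp of the site centre the list as deposited held 1215 nucleosomes per Mb (129 nucleosomes), against 292 per Mb at 10 to 50 kb, a ratio of 4.16. At the HNF4A peaks without wild-type H3K4me2 this ratio was 2.20. In Cdx2 knockout 7 nucleosomes lay within 150 bp, or 65.9 per Mb against 152 per Mb at 10 to 50 kb, a ratio of 0.434, and the HNF4A peaks had 0.786. At the strict threshold the Hnf4a knockout ratio was 1.56, with 24 nucleosomes within 150 bp, and 1.02 at the HNF4A peaks. The ratios are descriptions of single libraries. The choice of sites without wild-type nucleosomes within 1 kb sets the central value to 0 in wild type. It may lower the central value in the other lists too, which was not tested.

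**Figure D4:**
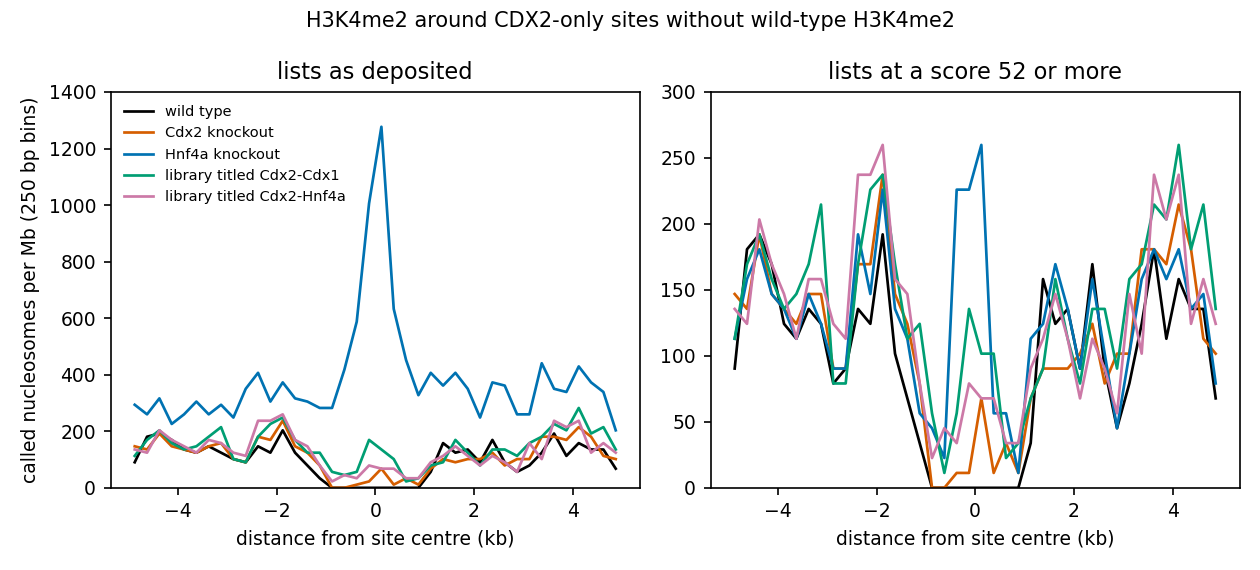
Called H3K4me2 nucleosomes per Mb (y axis, 250 bp bins) against distance from the centre of the 354 sites (x axis, kb) in the 5 lists, as deposited (left) and at a nucleosome score of at least 52 (right, with its own scale). The wild-type line is 0 within 1 kb by choice of the sites, and the Hnf4a knockout line peaks next to the centre at 1277 per Mb as deposited, while at the strict threshold its highest bin, 259.9 per Mb, stands little above others at 226.0.

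The fullest site in Hnf4a knockout lay on chromosome 15 at 95736071 to 95737160, with CDX2 scores of 241, 55.4 and 76.9 in library 1, library 2 and Hnf4a knockout. It had 8 nucleosomes in Hnf4a knockout, 3 of them at the strict threshold, 0 in Cdx2 knockout, and 2 and 1 in the libraries titled Cdx2-Cdx1 and Cdx2-Hnf4a. Its nearest wild-type nucleosome was 19.3 kb away. There were 4 sites with 7 nucleosomes each, and those with the highest CDX2 scores among them were the strongest site on chromosome 6 and the site on chromosome 8 described above.

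In Hnf4a knockout the mark went with wild-type CDX2 strength. As deposited, 35.6% (28.8 to 42.9), 41.2% (31.3 to 51.7) and 62.3% (49.8 to 73.7) of sites in the lowest, middle and highest score tercile had a nucleosome, the highest being 26.7 points (12.9 to 39.0) above the lowest. At the strict threshold the gap was 11.3 points (1.04 to 23.4), although the middle tercile was lowest at 11.3%. In the library titled Cdx2-Cdx1 the gap was 12.8 points (3.75 to 24.2). In Cdx2 knockout the shares were 3.19%, 4.12% and 2.90%, a gap of −0.293 points (−4.46 to 6.98), while for the library titled Cdx2-Hnf4a the gap was 3.38 points (−2.88 to 12.7). Whether these gaps differ between libraries was not tested. Over all 1584 CDX2 sites, 86.9% had a nucleosome in Hnf4a knockout as deposited and 78.5% at the strict threshold. Their shares by tercile were not computed, so the rise with score is not shown to be particular to the 354 sites. The median distance to a wild-type nucleosome was 12.8, 15.8 and 10.9 kb in the terciles. Strict values by tercile, distance and CDX2 call are counted on the same 354 sites.

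**Figure D5:**
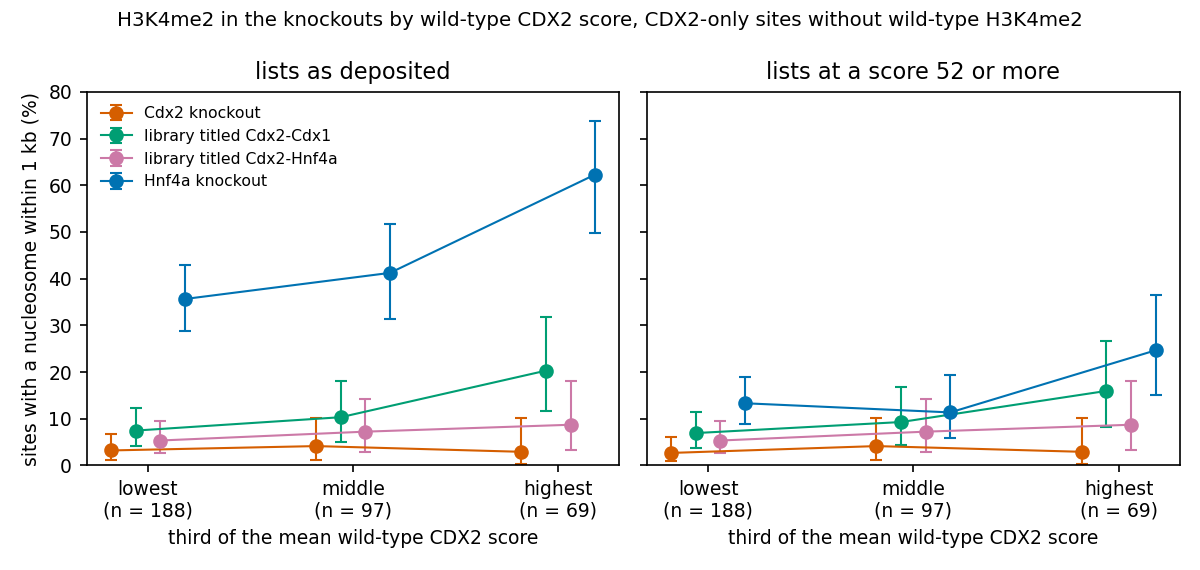
Share of the CDX2-only sites without wild-type H3K4me2 that had a nucleosome within 1 kb (y axis, percent) by tercile of wild-type CDX2 score (x axis) in the 4 knockout libraries, as deposited (left) and at a nucleosome score of at least 52 (right). Bars are exact 95% intervals. The Hnf4a knockout line reaches 62.3% in the highest tercile as deposited, and the Cdx2 knockout line stays under 5% in all of them.

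It also went with nearness to marked chromatin. In Hnf4a knockout as deposited, 71.2% (61.8 to 79.4) of the 111 sites within 1 to 5 kb of a wild-type nucleosome had the mark. The share was 40.6% (30.9 to 50.8) of 101 sites at 5 to 20 kb, 26.7% (17.8 to 37.4) of 86 at 20 to 100 kb and 12.5% (5.18 to 24.1) of 56 beyond 100 kb. HNF4A peaks without wild-type H3K4me2 gave 60.8%, 38.3%, 22.5% and 2.75%. The CDX2 sites were thus higher by 10.4 points (1.07 to 18.3) at 1 to 5 kb, 2.32 (−7.03 to 12.3) at 5 to 20 kb, 4.21 (−4.48 to 14.7) at 20 to 100 kb and 9.75 (2.998 to 20.9) beyond 100 kb. At the strict threshold these differences were 6.35, 3.29, 1.41 and 1.79 points, each with an interval including 0. In Cdx2 knockout 11 of the 12 marked sites lay within 5 kb of a wild-type nucleosome. At the strict threshold the Hnf4a knockout shares were 27.9%, 13.9%, 8.14% and 1.79% in the same order. Against the HNF4A peaks, the Cdx2 knockout share differed by −5.45 points (−10.1 to 1.69) at 1 to 5 kb, −8.97 (−10.7 to −4.37) at 5 to 20 kb, −5.16 (−6.81 to −0.697) at 20 to 100 kb and −0.306 (−1.71 to 6.12) beyond. For the library titled Cdx2-Cdx1 the differences were −2.62, −2.82, −3.65 and −2.14 points, each with an interval including 0. For the library titled Cdx2-Hnf4a they were −1.06, −3.14, −6.05 and −1.53, and only the interval at 20 to 100 kb (−7.81 to −1.56) excluded 0. At like distance the lower shares in the lists lacking Cdx2 were thus told from 0 in some bands and not in others.

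CDX2 called again in Hnf4a knockout and the mark there were set side by side. Of the 124 sites with a CDX2 peak, 40.3% (31.6 to 49.5) had a nucleosome in Hnf4a knockout, against 43.5% (37.0 to 50.1) of the 230 without, a difference of −3.16 points (−13.6 to 7.64). At the strict threshold the shares were 13.7% and 15.7%, a difference of −1.94 points (−9.18 to 6.31). Within score terciles the as-deposited shares parted. In the middle tercile 11 of 42 sites with a CDX2 peak (26.2%) and 29 of 55 without (52.7%) were marked, a difference of −26.5 points (−43.2 to −6.82). In the highest it was 26 of 49 (53.1%) against 17 of 20 (85.0%), a difference of −31.9 points (−48.7 to −7.08), and in the lowest 4.56 points (−12.1 to 22.9). In the list as deposited, sites of the middle and highest tercile thus carried the mark more often where CDX2 was lost than where it was called. The strict threshold gave −1.43, −7.40 and −14.6 points from the lowest to the highest tercile, each with an interval including 0. The peaks and the nucleosomes came from separate libraries of the same genotype, and these splits were made after values were seen. The splits were not made at like distance from a wild-type nucleosome, with which the mark also went.

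CDX2 itself was called in Hnf4a knockout at 28.8% (20.6 to 38.2), 38.6% (29.1 to 48.8), 30.2% (20.8 to 41.1) and 48.2% (34.7 to 62.0) of sites at 1 to 5, 5 to 20, 20 to 100 and over 100 kb from a wild-type nucleosome. The median wild-type score was 78.0, 79.9, 76.5 and 80.7 in these distance groups, so the sites most remote from marked chromatin had scores like the rest.

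Counted in both directions over all 900 CDX2-only sites, at the strict threshold, 12 sites were marked in Cdx2 knockout alone and 157 in wild type alone, so 7.10% of changes were gains. The library titled Cdx2-Cdx1 gave 36 against 121 and the library titled Cdx2-Hnf4a 24 against 195. Hnf4a knockout gave 57 against 20, or 74.0% gains. The 684 sites shared with HNF4A were alike in this, with 5.94% gains in Cdx2 knockout (6 against 95) and 77.4% in Hnf4a knockout (24 against 7). At the 18676 HNF4A peaks without CDX2 the gains were 29.3% of changes in Cdx2 knockout (524 against 1263) and 54.5% in Hnf4a knockout (707 against 590). This count does not rest on the choice of sites without the mark.

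Of the 354 sites, 199, or 56.2%, had 0 nucleosomes within 1 kb over the 5 deposited lists together. A further 109 had one in Hnf4a knockout alone, and 46 had one in at least 1 of the 3 lists lacking Cdx2. Of those 46, 41 (89.1%) were marked in Hnf4a knockout as well, which is 27.3% of the 150 sites marked there. At the strict threshold, 280 of the 358 sites had none in any list, 34 had one in Hnf4a knockout alone, and 23 of the 44 marked in a list lacking Cdx2 were also marked in Hnf4a knockout. Such overlaps were not counted over all CDX2 sites or over the HNF4A peaks. Of all CDX2 sites, 86.9% were marked in Hnf4a knockout as deposited and 78.5% at the strict threshold.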

How the data were processed

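The factor lists give, as deposited by the authors, a position and a score per peak. Peak names carry the word MACS, per the files. The meaning of that score, the aligner and the control were not given in the sources used here. Nucleosome lists give a nucleosome score, 10 times the −log10 of a p-value, per the file headers. Build is mm9, per the submitters' processing notes. Coordinates count from 1.

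The members and lists were chosen with earlier results of these data known. The groupings of the mark by score tercile and by distance were chosen after values were seen. Merging, overlap (1 bp), windows (1 kb) and intervals were computed in Python 3.11.15 with pandas 2.3.3 and SciPy 1.17.1, and tested on simulated data. Shares have exact Clopper-Pearson and differences Newcombe 95% intervals. With 1 knockout library per group no p-value was computed.

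Named sites followed a rule: the 5 highest-scoring of all, of those called and of those lost in Hnf4a knockout, the 5 fullest in lists lacking Cdx2, the 3 fullest in Hnf4a knockout, and 3 on each side of the 1 kb limit. Input DNA was not analysed here.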

Additional observations from a re-analysis of the deposited data

How the results depend on the processing

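Over 69 values under alternatives, 35 kept their direction and side of 0 or stayed within the reported interval. No paired analysis was possible because only wild-type CDX2 had more than 1 library. The number of sites was 200 with CDX2 scores of 60 or more and 200 with CDX2 lists of equal length. The share called in Hnf4a knockout was 46.5% with equal lists. The difference from CDX2-only sites with H3K4me2 turned to 0.228 points with scores of 60 or more, 0.561 with equal lists, and 1.27, 6.46 and 8.51 in the lowest, middle and highest tercile. The difference from shared sites turned to 2.67, 12.6 and 3.74 in the terciles, and its interval included 0 at −5.57 with a 2 kb window, −3.60 with scores of 60 or more, −1.48 with equal lists and −3.56 with knockout peaks centred within 250 bp. Leaving out wild-type CDX2 library 1 or 2 gave 5312 and 4937 sites and shares called of 5.69% and 5.21%. The differences, not taken at like score, were −16.4 and −4.14 from CDX2-only sites with H3K4me2 and −26.4 and −7.73 from shared sites. Shares with a nucleosome then ran from 2.54% to 3.81% in Cdx2 knockout, 12.9% to 26.3% in Hnf4a knockout, 4.54% to 7.19% in the library titled Cdx2-Cdx1 and 3.67% to 5.55% in that titled Cdx2-Hnf4a. With a 2 kb window the Cdx2 knockout share was 5.88%. The Hnf4a knockout share was 15.9% at a score of 52 or more and 15.3% with equal lists, where the library titled Cdx2-Cdx1 had 6.50%. Counting only sites with at least 2 nucleosomes gave 0.565% in Cdx2 knockout, 31.9% in Hnf4a knockout, 4.24% in the library titled Cdx2-Cdx1 and 2.26% in that titled Cdx2-Hnf4a. The cause of these shifts was not tested, except that stricter scores and single-library sites change which sites qualify. Depth is unknown, so weak peaks and nucleosomes may be uncalled.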
